A study of Rattus norvegicus with 50 samples.

Results

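The comparison described here is the first repeat bleed of the study, day 2 against day 0, over all 10 rats of both treatments. Its members were found from the sample titles and the animal label: 20 of the 50 arrays, 1 at day 2 and 1 at day 0 for each rat. The 12 arrays of the MIA group come from 6 rats and the 8 arrays of the naive group from 4 rats. Each rat served as its own control, and the change common to both treatments was the mean of the MIA change and the naive change, so that the larger group did not outweigh the smaller one.

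All animals were male Wistar rats, and total RNA of tail vein blood was hybridized to Affymetrix Rat Gene 2.0 ST arrays. MIA rats received monosodium iodoacetate in saline into the right knee joint under isoflurane, a model of osteoarthritis in which the agent blocks glycolysis in chondrocytes. At day 2 they had carried that injection for 2 days, and their day 0 blood was drawn before it. Naive rats were intact animals bled on the same days, with no injection, and the samples hold no group injected with saline alone. The published methods state 6 samples per group, whereas the labels give 6 MIA and 4 naive rats, and the labels are followed here. What both treatments share at day 2 is an earlier bleed, 2 more days of age and housing, repeated handling and whatever differed in the processing of the 2 sets of arrays, and these cannot be told apart because the labels name no batch and every rat was sampled in the same order.

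Whole blood RNA comes mostly from reticulocytes and platelets, which carry RNA without a nucleus, and from leukocytes, of which lymphocytes are the most frequent in rats and neutrophils change fastest. Neutrophils leave the marrow or the vessel wall within hours of stress or injury, glucocorticoids shift lymphocytes out of the circulation, and loss of blood raises erythropoietin and, after some days, the output of young red cells. A sample of whole blood sums all of these, so that fewer cells of a type and less RNA per cell cannot be told apart in any value below.

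The values are log2 signals, and a change of 1 is a doubling. The 20 arrays had medians between 2.26 and 2.38. Above the median probe set lay 35 of 35 erythroid, 15 of 15 platelet, 12 of 12 B cell, 22 of 23 T cell and 20 of 21 mature neutrophil genes, but 10 of 17 neutrophil granule genes and 5 of 12 eosinophil and basophil genes. The red cell anion exchanger Slc4a1 had a mean level of 11.43, the platelet chemokine Pf4 11.14, the invariant chain Cd74 of MHC class II 10.43, the neutrophil alarmin S100a9 7.83, the B cell antigen Ms4a1 7.12 and the T cell receptor subunit Cd3e 6.68. Of genes of the tissues a needle crosses, 3 of 7 for skin keratinocytes, 4 of 10 for skeletal muscle and 4 of 8 for endothelium lay above the median probe set, shares like that of the eosinophil and basophil list. None of the 20 arrays stood apart: their SDs lay between 1.84 and 1.94 and their mean correlations with each other between 0.948 and 0.965.

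No probe set passed the threshold at day 2. Of 36685 probe sets, 0 passed an adjusted p of 0.05 in the common change (0% higher, 0% lower; limma with Benjamini-Hochberg adjustment, two-sided), and the smallest adjusted p was 0.185. At an unadjusted p under 0.05 there were 996 probe sets higher (2.72%) and 877 lower (2.39%), 1873 together (5.11%). Within MIA rats 0 were called as well, with 2254 at the unadjusted threshold (6.14%; 3.3% higher and 2.84% lower). Within naive rats 0 were called, with 1884 at the unadjusted threshold (5.14%; 2.73% higher and 2.41% lower). In the test of the difference between the treatments, MIA minus naive, 0 were called, with 2050 at the unadjusted threshold (5.59%; 2.87% above 0 and 2.72% below). Over all probe sets 18349 (50%) were higher in value at day 2 and the median common change was 0.00.

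Intervals of single probe sets, not adjusted for the number tested, describe the size of the estimates and not the size that the adjusted test could call. The median SE of a common change was 0.12 and the median unadjusted 95% interval reached 0.26 to either side (n = 10 rats). For 99.8% of the 14824 probe sets with 1 gene symbol the whole interval lay within 1, and for 91.4% it lay within 0.5. Over all probe sets these shares were 97.1% and 76.8%. The estimates for probe sets with 1 symbol ran from −0.74 to 0.93, none of them beyond 1, while 88 probe sets of the whole array went beyond 1 in either direction, the lowest at −1.24 and the highest at 2.07.

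The profiles of change had little in common between rats. Between any pair of rats the correlation of their day 2 changes over all probe sets averaged 0.02 (45 pairs, −0.13 to 0.14), as a description over probe sets, which are not independent and share the normalization. It averaged 0.03 among MIA rats, 0.03 among naive rats and 0.01 between the treatments. The mean MIA change and the mean naive change, which rest on different animals, had a correlation of 0.03 over probe sets and the same sign in 48.7% of them. Within a rat, the SD of the change over probe sets was 0.48 to 0.57.

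The 10 named genes with the smallest p above 0 and the 10 below 0 are given as values, since none passed. Aen, a nuclease that promotes apoptosis and a target of p53, stood first among the higher ones. Its level at day 2 was 3.68 at the lowest, 4.46 at the median and 4.93 at the highest in MIA rats, against 3.37, 3.81 and 4.44 at day 0. In naive rats it was 4.68, 3.92, 4.20 and 4.28 at day 2, against 4.36, 3.92, 3.18 and 3.19 at day 0. All 6 MIA rats and 3 of 4 naive rats had the higher value at day 2, although the ranges of the days overlapped in both groups. The common change was 0.56 (SE 0.11, 95% interval 0.32 to 0.81, limma adjusted p = 0.258), made up of 0.52 for the MIA group and 0.61 for the naive group. Over days 0, 2, 14, 21 and 28 the mean of all rats was 3.76, 4.31, 3.79, 3.84 and 3.80 (SD 0.34 to 0.45, n = 9 at day 21 and 10 otherwise), so the level at day 2 was the highest of the series; since Aen was chosen for its day 2 value, this is a description.

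**Figure D1:**
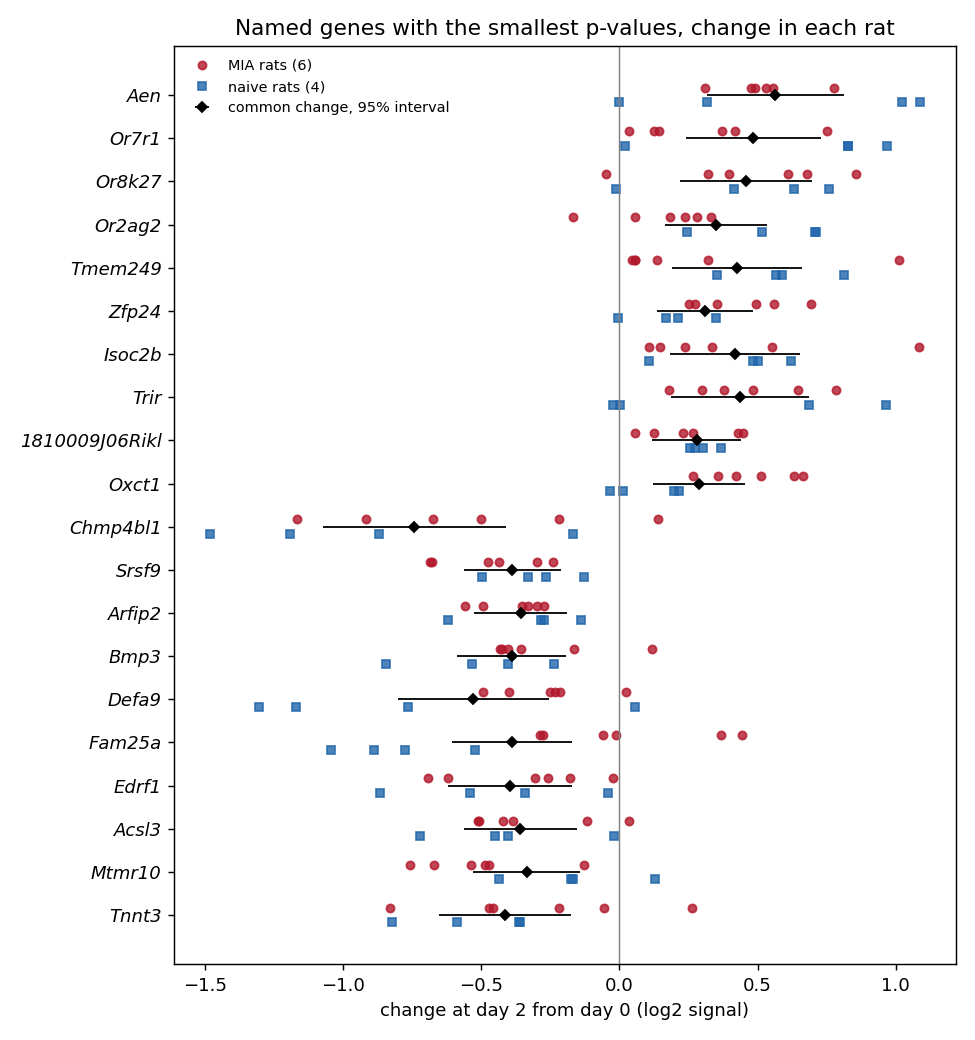
Change at day 2 from day 0 (log2 signal, horizontal axis) of the 20 named genes with the smallest p-values, 1 circle per MIA rat (6) and 1 square per naive rat (4); diamonds and bars are the common change with its 95% interval. Srsf9, Arfip2 and Edrf1 lie below 0 in all 10 rats, and Or7r1, Tmem249, Isoc2b and 1810009J06Rikl lie above 0 in all 10. Fam25a differs between the treatments in value, and no gene passed the adjusted threshold.

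The other 9 higher genes had common changes between 0.28 and 0.48. Trir, a nuclease that binds the telomerase RNA component, was the brightest of the 10 with a mean level of 6.93, a common change of 0.44 (SE 0.11) and an adjusted p of 0.55. Oxct1, the mitochondrial enzyme by which tissues use ketone bodies, differed by 0.48 for the MIA group and 0.10 for the naive group, with an unadjusted p for that difference of 0.0299 and an adjusted p of 0.852. Zfp24, a zinc finger transcription factor, differed by 0.44 for MIA and 0.18 for naive rats. Isoc2b, named for its isochorismatase domain, was 0.42 higher in value (limma adjusted p = 0.526) and higher in all 10 rats. So was the transmembrane protein gene Tmem249, at 0.43 (limma adjusted p = 0.514). Both were dim: Isoc2b had a mean level of 2.35, within the range of the array medians, and Tmem249 had 2.10, below every one. The olfactory receptor genes Or7r1, Or8k27 and Or2ag2 and the gene 1810009J06Rikl had mean levels between 1.19 and 1.90, below the median of every array. Their common changes were 0.48, 0.46, 0.35 and 0.28. Of these dim genes, Or7r1 and 1810009J06Rikl were also higher in all 10 rats.

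Among the lower genes, 3 were lower in value in every rat. Srsf9, an SR protein that regulates splicing, had levels of 3.21, 3.94 and 4.06 (lowest, median, highest) in MIA rats at day 2, against 3.89, 4.27 and 4.53 at day 0. In naive rats it had 3.07, 3.70, 3.76 and 3.86 at day 2, against 3.56, 3.83, 4.02 and 4.19 at day 0. The days overlapped between rats, while within each rat day 2 was lower. The common change was −0.39 (SE 0.08, adjusted p = 0.288).

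Arfip2, which binds small GTPases of the Arf and Rac families, had levels of 3.58, 3.72 and 4.05 in MIA rats at day 2, against 3.99, 4.08 and 4.54 at day 0. Its naive values were 3.81, 3.94, 3.50 and 4.01 at day 2, against 4.09, 4.08, 4.12 and 4.29 at day 0, and the naive days did not overlap. The common change was −0.36 (SE 0.08, adjusted p = 0.343). Edrf1, a regulator of erythroid differentiation in human cells, differed by −0.40 (SE 0.10, adjusted p = 0.526), with a MIA change of −0.35 and a naive change of −0.45.

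The largest estimate among these genes was that of Chmp4bl1, named for its likeness to an ESCRT-III subunit that cuts membranes: −0.74 (SE 0.15, adjusted p = 0.269), with 9 of 10 rats lower and single changes from −1.48 to 0.14. Its mean level was 5.96, 5.25, 5.33, 5.16 and 5.16 over the 5 days in order. Acsl3, an acyl-CoA synthetase, and Mtmr10, of the myotubularin family, differed by −0.36 and −0.34. The ligand gene Bmp3, the alpha-defensin gene Defa9 and the fast muscle troponin gene Tnnt3 differed by −0.39, −0.53 and −0.41. Bmp3, Defa9 and Mtmr10 lay at mean levels of 1.74, 1.86 and 2.03, again under every array's median. The mean level of Fam25a, 2.33, lay within the range of the array medians. Fam25a was the gene of the 20 that differed most between treatments in value, at 0.03 for MIA and −0.81 for naive rats. Its 4 naive levels were 1.62, 2.11, 1.96 and 2.11 at day 2, against 2.66, 3.00, 2.74 and 2.63 at day 0, without overlap, and the unadjusted p of the difference was 0.00132, which the adjustment over all probe sets took to 0.684.

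**Figure D2:**
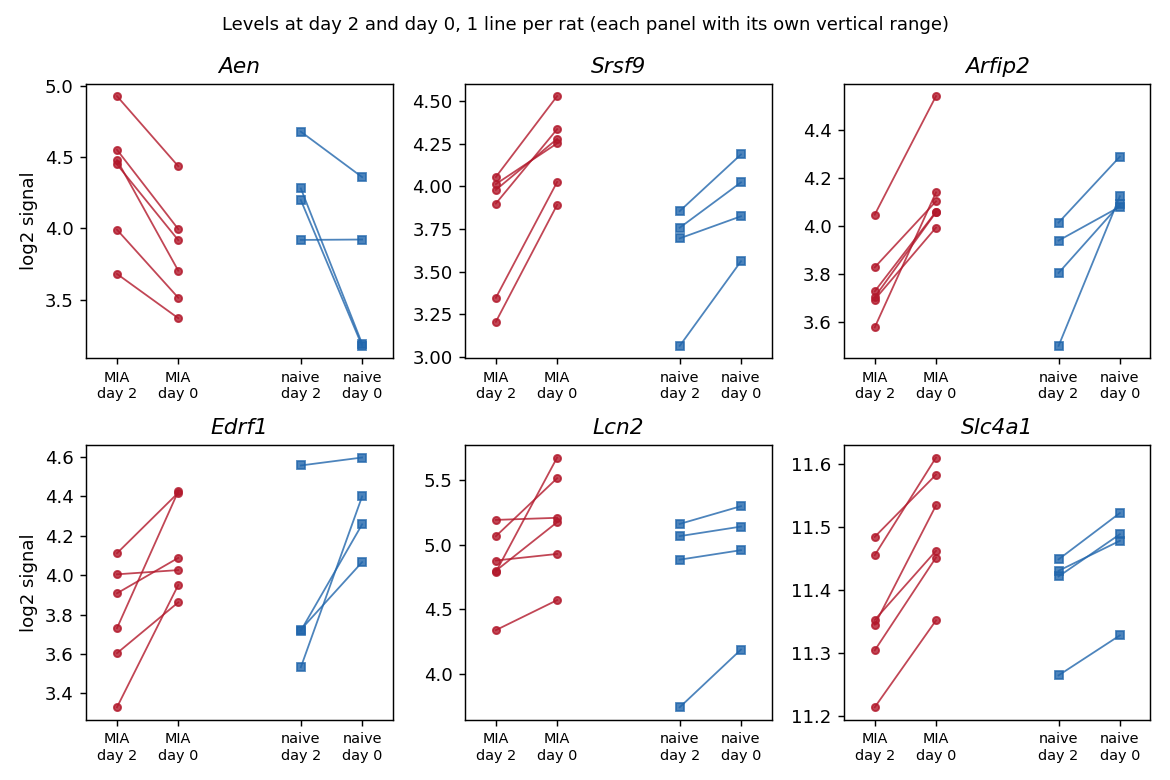
Levels (log2 signal, vertical axis, each panel with its own range) of 6 genes at day 2 and day 0, 1 line per rat, MIA rats as circles on the left and naive rats as squares on the right of each panel. Every line of Srsf9, Arfip2, Edrf1, Lcn2 and Slc4a1 runs to a higher value at day 0, and 9 of the 10 lines of Aen run to a lower one.

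Agreement in sign across rats was rare over the array. Day 2 was above day 0 in all 10 rats for 52 probe sets (0.142%) and below it in all 10 for 56 (0.153%). Of these, 15 and 25 carry 1 symbol. The genes named here were picked from them after their values were seen. With this many probe sets some share a sign in all 10 rats by chance, and the counts were not tested against that share. Beside Isoc2b and Tmem249, the higher ones include Ccng1, the p53 target cyclin G1 (0.16, adjusted p = 0.976), the CC chemokine gene Ccl9 (0.31, adjusted p = 0.55), the clathrin adaptor subunit gene Ap1s1 (0.30, adjusted p = 0.661), the mitochondrial NLR protein gene Nlrx1 (0.20, adjusted p = 0.843) and the ribosomal protein gene Rpl4 (0.12, adjusted p = 0.988).

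The lower ones include the red cell genes Slc4a1 (−0.10, adjusted p = 0.988) and Ube2o, a ubiquitin ligase that remodels the proteome of reticulocytes (−0.17, adjusted p = 0.914). They also include Cmas, which activates sialic acid (−0.21, adjusted p = 0.717), the fatty acid oxidation gene Ech1 (−0.30, adjusted p = 0.629), Mavs, the adaptor of RNA sensors (−0.23, adjusted p = 0.801), and the antiviral gene Zc3hav1 (−0.22, adjusted p = 0.75). None passed the adjustment over all probe sets, and the shared direction is the reason they are shown.

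Slc4a1 is the clearest case of a small shift with little spread. Its levels in MIA rats were 11.21, 11.35 and 11.48 at day 2, against 11.35, 11.50 and 11.61 at day 0. In naive rats they were 11.43, 11.42, 11.45 and 11.26 at day 2, against 11.48, 11.49, 11.52 and 11.33 at day 0. Every rat was lower at day 2, by 0.14 ± 0.03 in MIA rats (SD, n = 6) and by 0.06 ± 0.01 in naive rats (SD, n = 4). With variances estimated for this probe set alone the MIA change had an adjusted p of 0.0478, and with limma's moderated variances, used throughout, 0.861.

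The red cell genes as a group were nearly level at day 2. Of 35 measured erythroid and reticulocyte genes 0 were called, 15 were higher and 20 lower in value, and the median was −0.02, against 0.00 over all probe sets. Medians per rat ran from −0.08 to 0.08, the narrowest spread of the 28 lists. Slc25a37, the mitochondrial iron importer of erythroid cells, had the smallest p (−0.20, unadjusted p = 0.0407, adjusted p = 0.943), followed by the transferrin receptor gene Tfrc (−0.15, adjusted p = 0.988). All 35 intervals lay within 1. Of 9 erythropoietin and STAT5 targets 0 were called and the median was −0.01, and of 16 hypoxia targets 0 were called and the median was 0.00.

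Ankrd37, a hypoxia target, had the lowest unadjusted p for a difference between treatments among the list members named here (0.000428, adjusted p = 0.523). In MIA rats its levels were 2.02, 2.36 and 2.53 at day 2, against 2.30, 2.51 and 2.73 at day 0. In naive rats they were 3.48, 2.90, 2.66 and 2.79 at day 2, against 2.42, 2.43, 2.32 and 1.75 at day 0. The MIA days overlapped and the naive days did not, with a MIA change of −0.23 and a naive change of 0.73.

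**Figure D3:**
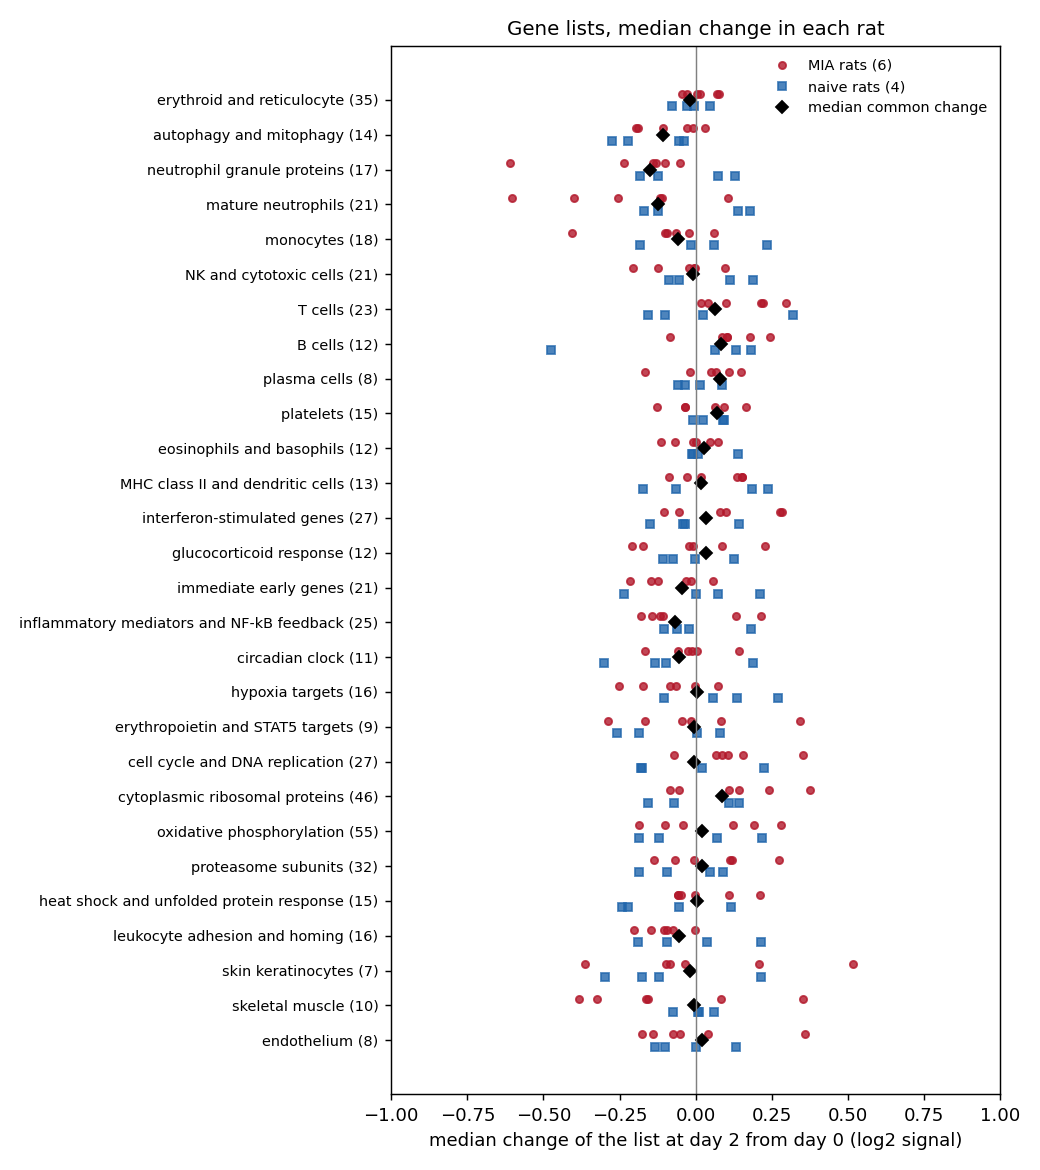
Median change at day 2 from day 0 (log2 signal, horizontal axis) of 28 gene lists, with the number of measured genes in brackets, 1 circle per MIA rat (6) and 1 square per naive rat (4); diamonds are the median common change. All diamonds lie between −0.15 and 0.09, and for all 28 lists the rats lie on both sides of 0.

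Neutrophil genes had the lowest medians of the 28 lists. Of 17 neutrophil granule protein genes, made during maturation in the marrow, 0 were called and 14 were lower in value (median −0.15); of 21 genes of mature neutrophils, such as receptors and alarmins, 0 were called and 18 were lower in value (median −0.12). The lists as drawn up share S100a8, S100a9, Mmp9 and Pglyrp1. At an unadjusted p under 0.05 the granule list had 4 genes lower and 1 higher, and the mature list 1 lower. For the mature list the MIA median was −0.24 and the naive median −0.00; 5 of 6 MIA rats had a median under 0, while the naive rats lay 2 on each side of 0. For the granule list the MIA median was −0.13 and the naive median −0.02. All 6 MIA rats had a granule list median under 0, and the naive rats lay 2 on each side of 0. The lowest granule list median was that of MIA replicate 2, −0.61.

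Mmp8, the neutrophil collagenase, illustrates the values. Its levels in MIA rats were 5.91, 6.83 and 7.52 at day 2, against 6.70, 7.45 and 8.11 at day 0. In naive rats they were 7.21, 7.31, 7.43 and 6.62 at day 2, against 7.27, 7.57, 7.52 and 6.28 at day 0. The MIA change was −0.65 and the naive change −0.02, with overlapping days in both; the unadjusted p of the difference was 0.0164, which did not hold after adjustment over all probe sets. The common change was −0.33 (SE 0.11, adjusted p = 0.756).

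Lcn2, the granule lipocalin that binds bacterial iron carriers, was lower in all 10 rats, by 0.26 in the mean (SE 0.10, adjusted p = 0.887). Ngp, another granule protein gene, differed by −0.41 (SE 0.17, adjusted p = 0.915). The formyl peptide receptor gene Fpr1 differed by −0.44 (SE 0.15, adjusted p = 0.742), with a MIA change of −0.68 and a naive change of −0.21. The alarmin genes S100a8 and S100a9, whose proteins form calprotectin, differed by −0.55 and −0.43 in MIA rats and by 0.01 and 0.04 in naive rats. Defa5, an alpha-defensin gene that was dim on these arrays, lay on the other side of 0 at 0.30 (adjusted p = 0.63).

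Lymphocyte and platelet lists had medians slightly above 0, with 0 members called. T cells had 18 of 23 genes higher in value and a median of 0.06, and all 6 MIA rats but 2 of 4 naive rats had a median above 0. B cells had a median of 0.08 over 12 genes, where the homing receptor gene Cxcr5 had the smallest p (0.28, SE 0.09, adjusted p = 0.717). The medians were 0.07 over 15 platelet genes, 0.08 over 8 plasma cell genes and −0.01 over 21 genes of NK and cytotoxic cells. Cd244l1, of the family of the NK receptor 2B4, had the largest estimate of any list member named here, −0.61 (SE 0.19, 95% interval −1.03 to −0.19, adjusted p = 0.692). Monocyte genes had a median of −0.06 over 18 genes, including Tlr4, the endotoxin receptor, at 0.30 (adjusted p = 0.914) and the integrin gene Itgam at −0.24 (adjusted p = 0.92).

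Genes that answer stress and inflammation within hours were near 0 as groups. The 12 measured glucocorticoid response genes had a median of 0.03 with 0 called; Anxa1, annexin A1, had the smallest p among them and was lower in value (−0.29, SE 0.08, adjusted p = 0.59). The 21 immediate early genes had a median of −0.04, with Ier3 at −0.41 (adjusted p = 0.784). The 25 inflammatory mediators and feedback genes of NF-kB had a median of −0.07, with the inflammasome sensor gene Nlrp3 at −0.46 (SE 0.14, adjusted p = 0.634) and 9 of 10 rats lower. The 27 interferon-stimulated genes had a median of 0.03 with 0 at an unadjusted p under 0.05. The 11 circadian clock genes, whose transcripts cycle over the day, had a median of −0.06 and 0 at that threshold.

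Ribosomal protein and autophagy genes lay mostly on 1 side of 0 without passing. Of 46 cytoplasmic ribosomal protein genes 42 were higher in value, with the highest list median, 0.09, yet 0 had an unadjusted p under 0.05; per rat the median ran from −0.16 to 0.38 and was above 0 in 6 of 10 rats. All 14 autophagy and mitophagy genes were lower in value (median −0.11), among them Ulk1, the kinase that starts autophagy, at −0.23 (unadjusted p = 0.0604), Atg9a, a lipid scramblase of the same pathway, at −0.24 (unadjusted p = 0.0556) and the lysosomal regulator Tfeb at −0.24 (unadjusted p = 0.063), with adjusted p of 0.976, 0.976 and 0.979. Their median was under 0 in 9 of 10 rats. The 55 oxidative phosphorylation genes had a median of 0.02, the 32 proteasome genes 0.02, the 15 heat shock and unfolded protein response genes 0.00 and the 27 cell cycle genes −0.01. Over the 525 genes of the 28 lists, 7 (1.33%) were higher and 13 (2.48%) lower at an unadjusted p under 0.05, beside 2.72% and 2.39% of all probe sets.

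The same model called 15 probe sets at day 14 and many more at days 21 and 28. All of these comparisons use the day 0 arrays, so they are set side by side and not against each other. At day 14, 15 probe sets passed (0.0409%), 14 higher (0.0382%) and 1 lower (0.00273%), and 3581 had an unadjusted p under 0.05 (9.76%). At day 21, fitted without the MIA rat whose array of that day stands apart in spread, 1127 passed (3.07%), 317 higher (0.864%) and 810 lower (2.21%). At day 28, 5074 passed (13.8%), 3309 higher (9.02%) and 1765 lower (4.81%).

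**Figure D4:**
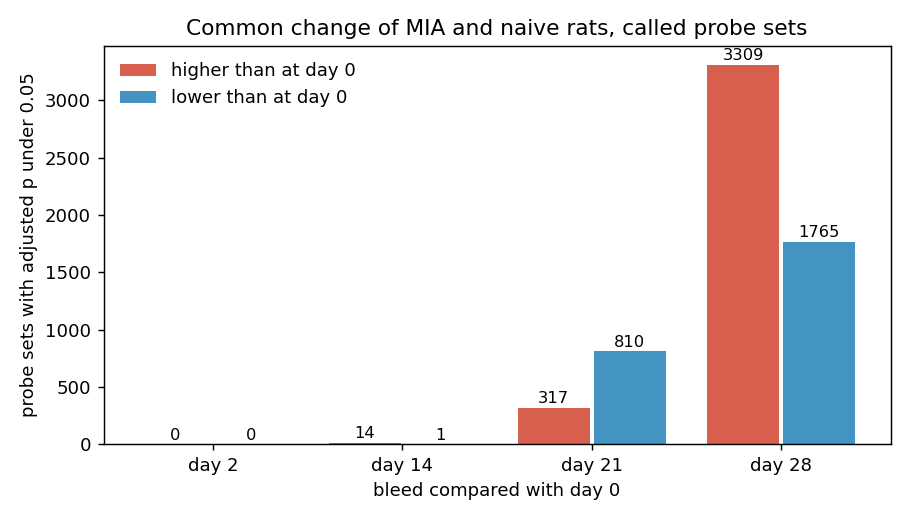
Number of probe sets with an adjusted p under 0.05 in the common change of MIA and naive rats at days 2, 14, 21 and 28 against day 0 (vertical axis, of 36685), red bars higher and blue bars lower than at day 0. The count was 0 in both directions at day 2, and 3309 higher and 1765 lower at day 28; all 4 comparisons share the day 0 arrays, and day 21 holds 9 rats.

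Day 28 was tested against day 2 directly, paired by animal and without the day 0 arrays. There, 4402 probe sets passed (12%), 3017 higher at day 28 (8.22%) and 1385 lower (3.78%). Of the 35 erythroid and reticulocyte genes, 25 were called lower at day 28 and 0 higher, with a median of −0.60. Of the 21 mature neutrophil genes, 19 were called higher and 0 lower, with a median of 0.89. Of the 21 NK and cytotoxic genes, 14 were called higher and 0 lower (median 0.51), and of the 25 inflammatory mediators 12 were higher and 1 lower (median 0.33). Platelet genes had 0 called in either direction, with a median of 0.01.

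Levels by day place the values of day 2 in that course. Over days 0, 2, 14, 21 and 28, Slc4a1 averaged 11.48, 11.37, 11.41, 11.10 and 11.05, and Slc25a37 averaged 9.39, 9.19, 9.07, 8.59 and 8.45. Both had at day 28 their lowest mean, and their day 2 means lay closer to day 0 than to day 28. Fpr1 averaged 4.88, 4.39, 5.38, 5.35 and 5.73, and Mmp8 averaged 7.29, 6.89, 7.67, 7.74 and 7.99. For both of these neutrophil genes day 2 had the lowest mean of the 5 days. These means pool the treatments, and for both genes the MIA change at day 2 lay further below 0 than the naive change, as given above. Slc4a1, Slc25a37, Fpr1 and Mmp8 were picked for their p at day 2.

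List medians are given side by side, since each uses the day 0 arrays. The erythroid list stood at −0.02, −0.20, −0.51 and −0.58 at days 2, 14, 21 and 28 against day 0. The mature neutrophil list stood at −0.12, 0.51, 0.47 and 0.81, and the NK and cytotoxic list at −0.01, 0.07, 0.44 and 0.56. The T cell list stood at 0.06, 0.20, 0.20 and 0.36.

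The probe sets with the smallest p at day 2 were mostly unnamed. Of the 100 distinct probe sets with the smallest p, chosen by these day 2 values and so given as a description, 76 were higher and 24 lower. Of the 76, 70 are unnamed in the tables used here, 4 carry 1 symbol and 2 carry several. Their common changes ran from 0.34 to 1.90 with a median of 1.08, above the highest estimate of any probe set with 1 symbol, 0.93. Most of them were dim, with a median level of 2.65 beside array medians between 2.26 and 2.38. The largest change, 1.90, had an SE of 0.38, against a median SE of 0.12 over all probe sets. The first of the 76 by p, probe set 17868807, differed by 1.28 (SE 0.16, limma adjusted p = 0.185) and was higher in all 10 rats. Its changes ran from 0.50 to 1.55 in MIA rats and were 2.04, 0.31, 1.72 and 1.56 in naive rats.

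These 76 probe sets moved together in blood that was not used to choose them. Only repeats with identical values were left out, and whether some of the 76 report the same transcript was not tested. On the 29 arrays of days 14, 21 and 28 that do not stand apart, the mean correlation between any pair of them was 0.47, against 0.03 over all pairs of probe sets and 0.07 for the 24 lower ones; the arrays come from 10 rats and share the normalization. Their mean level in MIA rats was 2.43, 3.27 and 4.15 at day 2 (lowest, median, highest), against 2.12, 2.31 and 2.76 at day 0. In naive rats it was 3.89, 2.55, 3.92 and 4.12 at day 2, against 2.20, 2.24, 2.23 and 2.72 at day 0. MIA replicate 3 and naive replicate 2 had the lowest values of their groups at day 2, 2.43 and 2.55, against 2.33 and 2.24 at day 0. At days 14, 21 and 28 the MIA medians were 2.68, 2.95 and 2.86 and the naive medians 3.38, 2.84 and 2.97. Single rats reached levels like those of day 2 at other times, up to 4.61 in a naive rat at day 14 and 4.21 in a MIA rat at day 21.

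**Figure D5:**
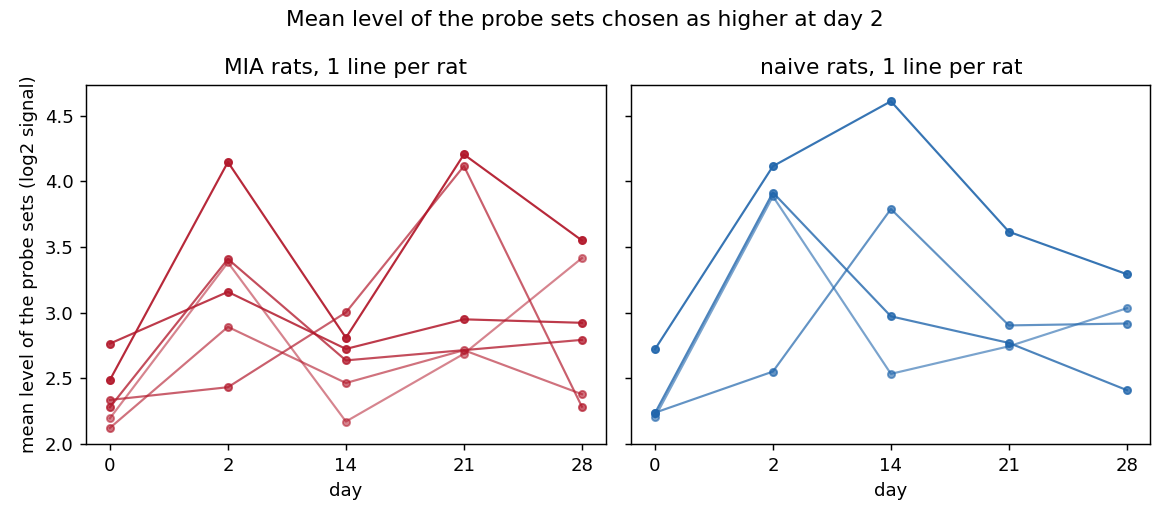
Mean level (log2 signal, vertical axis) of the 76 distinct probe sets with the smallest p and a higher value at day 2, by day, 1 line per rat, MIA rats on the left and naive rats on the right; the MIA array of day 21 that stands apart is left out. The probe sets were chosen by their day 2 and day 0 values; at later days single rats lie as high as 4.21 in MIA rats and 4.61 in naive rats.

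Leaving out 1 rat decided the only calls of the common change. Without naive replicate 2, 5 probe sets passed, all higher and all unnamed, with adjusted p from 0.00783 to 0.0434; they include 17868807 and 17628697, and 2 of the 5 hold identical values. Without any other rat 0 passed. Each change comes from a separate animal. The p-values rest on the spread between rats, moderated by limma towards a variance shared over all probe sets.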

How the data were processed

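Tail vein blood RNA was hybridized to Affymetrix Rat Gene 2.0 ST arrays. The authors subtracted the background, normalized by quantiles and deposited log2 signals per probe set; their processing notes name oligo 1.36.1, and how probes were summarized is not given in the sources used here. No further normalization was applied to the 36685 probe sets. Of these, 14824 have 1 gene symbol in the platform's table, 829 several and 21032 none used here; 14670 symbols were matched through gene IDs to the RefSeq table of GRCr8, which changed 0. Values of 752 probe sets repeat those of another.

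The 20 arrays of days 2 and 0 were grouped by GEO's labels and fitted with limma 3.58.1 (R 4.3.3): the animal as a block, a day 2 term for MIA and 1 for naive rats, and moderated variances. The common change is the mean of both terms. Tests were two-sided, and p-values were adjusted by Benjamini-Hochberg over all probe sets at 0.05. The pairing comes from the animal labels. Arrays of the same rat had a mean correlation of deviations from group means of 0.10 (−0.02 to 0.17). Different rats had −0.06, but centring on group means by itself pushes that value below 0, so it is no independent yardstick. The same model was fitted to days 14, 21 and 28 against day 0 and to day 28 against day 2. For day 21 the rat with an array whose log2 SD was under 1.5 (MIA replicate 4) was left out.

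Gene lists (28) were described by counts and medians with the brightest probe set of each gene. Named genes follow a rule: probe sets with 1 ordinary symbol, called and of 1 sign in all 10 rats, or, with fewer than 5 of these, the 10 with the smallest p in a direction; and up to 4 members of each list. The comparison, its members and the lists were chosen with earlier results of these data known. Alternatives were the fit without the block, all days in one fit, rats weighted equally, other scalings, no dim probe sets, other variance priors, array weights, the mean of each gene's probe sets, and each rat left out; counting repeated probe sets once was added after seeing the data. Scripts were tested on simulated data. The number of arrays limits the precision. Figures used Python 3.11.15 and matplotlib 3.10.9.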

Additional observations from a re-analysis of the deposited data

Results flagged for a closer look

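In groups of 4 naive or 6 MIA rats, 20 of 310 sets of changes or list medians had 1 rat far from the others by Dixon's criterion; chance flags about 1 in 20 such groups. The changes at day 2 from day 0 (log2) are given without a cause.

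Among the genes with the smallest p, naive replicate 1 had 0.021 for Or7r1, where the other naive rats had 0.83 to 0.97, and MIA replicate 5 had 1.01 for Tmem249, where the other MIA rats had 0.05 to 0.32. Among red cell and autophagy genes, naive replicate 1 had −0.41 for Slc25a37 and MIA replicate 5 had 0.29 for Wipi2. Naive replicate 4 had −0.45 for the granule gene Lcn2, −0.31 for the scavenger receptor gene Cd36, −1.17 for the plasma cell gene Fkbp11, −0.42 for the eosinophil gene Prg2 and −0.75 for the muscle gene Myh4. MIA replicate 4 had −0.081 for Anxa1, where the others had −0.62 to −0.43, and 0.49 for the chaperone gene Hsph1.

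Naive replicate 1 had −0.37 for the clock gene Cry2 and 0.62 for the proteasome gene Psmd5. MIA replicate 6 had −0.31 for the complex I gene Ndufv3, where the others had 0.37 to 0.73. The tissue genes had MIA replicate 5 at 0.55 for Krt15, MIA replicate 1 at −0.45 for Acta1 and naive replicate 2 at 0.98 for Emcn. Of the list medians, MIA replicate 2 had −0.61 for neutrophil granule proteins, where the others had −0.23 to −0.05, MIA replicate 5 had −0.40 for monocytes, where the others had −0.10 to 0.06, and naive replicate 3 had 0.14 for eosinophils and basophils, where the others had −0.01 to 0.01.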

How the results depend on the processing

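The common change called 0 probe sets under each of 11 other settings: no replicate block, all days in one fit with or without the array that stands apart, rats weighted equally, arrays normalized again or shifted to the same median, no dim probe sets, variances with trend and robust estimation, array weights, variances without moderation, and repeated probe sets counted once (added after seeing the data). The smallest adjusted p was 0.0668 to 0.354 over these settings. The MIA change called 0, except 1 probe set (Slc4a1) with variances without moderation. With 1 rat left out, the common change called 0 to 5, the 5 without naive replicate 2. The block changed no call. All 616 list medians under other settings moved by less than the SD between rats. That criterion is wide: for mature neutrophils the SD was 0.24 beside a median of −0.12. A list could reach 0 and still meet it, so the count does not show that small medians are stable. Of the values of named genes and list members under other settings, 2641 kept their direction and their side of the threshold. Another 3 reversed, all of skin genes with adjusted p near 1. The genes followed here were picked for the smallest p of the common change in the same arrays, and none was called. Keeping a direction or a side of the threshold was therefore largely fixed by that choice, and the count does not show stability. With 1 rat left out, Loricrin ranged from −0.210 to 0.0032 (above 0 without naive replicate 1), Krt1 from −0.021 to 0.202 and Krt14 from −0.153 to 0.296 (both below 0 without naive replicate 2). The cause was not tested. The number of rats limits the precision, and a count of 0 after adjustment does not show that levels were equal: estimates of up to 1.90 among the 100 distinct probe sets with the smallest p were not called.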
